A study of Mus musculus with 4 samples.

Results

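Levels of 10 genes of the Hippo pathway were measured by RNA sequencing in satellite cells (the resident stem cells of muscle) that derived from a transplant. The genes were taken by symbol from the 21264 rows of the expression table, and all 10 were found: Yap1, Wwtr1, Tead1 to Tead4, Lats1, Lats2, Amotl2 and Ankrd1. Wwtr1 encodes the protein called TAZ and is distinct from the mouse gene Taz, which encodes tafazzin. The 4 libraries form a single group. The study asked what Notch3 signalling does in muscle progenitors made from pluripotent cells and in the satellite cells they form after grafting. The starting material was iPAX3 cells, pluripotent cells with inducible Pax3, a factor that turns them into such progenitors. They were recovered from the recipient as donor-derived satellite cells, and their genotype was NICD3 overexpression, NICD3 being the part of the receptor Notch3 that is cut off and enters the nucleus. Every library carries NICD3. Cells of the same line without it are not analysed here, so levels, spreads and differences between genes within a library are given, and none of them is an effect of NICD3. The promoter driving NICD3, the age and strain of the recipients, the time after transplantation and the number of animals per library are not given in the sources used. Whether the replicates are separate animals is not stated, so p-values reflect only how these libraries differ among themselves, and that spread may be technical.

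The Hippo pathway is a kinase cascade that restrains a pair of transcriptional coactivators. The kinases Lats1 and Lats2 phosphorylate YAP and TAZ, which are then held in the cytoplasm or degraded. When the kinases are quiet, the coactivators enter the nucleus and bind the TEAD factors, which carry the DNA-binding domain. Angiomotin proteins such as Amotl2 hold YAP at junctions and on actin, while Amotl2, Lats2 and Ankrd1 are themselves target genes. In mouse satellite cells YAP is known to favour proliferation after activation, and TAZ has been linked to proliferation and later to differentiation of myoblasts. The pathway acts largely through phosphorylation and localisation of proteins, which RNA levels do not show.

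TEAD factors recognise the M-CAT element, here searched as the 6 bases GGAATG on either strand in the 250 bases before each annotated start (RefSeq, GRCm38.p6). A promoter was found for 8 of the 10 genes, and 5 of these 8 held the motif before at least 1 of their starts: Yap1, Wwtr1, Tead3, Amotl2 and Ankrd1. Over all 27025 genes with a promoter sequence the share was 14.4%. Among the 22 YAP and TAZ target genes described below, 15 had a promoter and 6 of those held the motif. The stretches of 30 bases around the motif are shown for the coactivators, for Amotl2 and Ankrd1 as target genes among the 10, and for Ccn1, the most abundant target. They read 5′ to 3′ on the strand of the gene, with the motif in capitals. A match is a description of these letters and not evidence of binding.
Yap1: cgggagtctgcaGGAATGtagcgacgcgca
Wwtr1: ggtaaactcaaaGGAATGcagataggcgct
Amotl2: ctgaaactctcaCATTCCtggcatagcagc
Ankrd1 (distal): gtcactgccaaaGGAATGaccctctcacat
Ankrd1 (proximal): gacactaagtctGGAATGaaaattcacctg
Ccn1: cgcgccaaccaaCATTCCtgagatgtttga

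The Yap1 stretch lies at chr9:8004720-8004749 on the minus strand, and its motif begins 141 bases before the start. The Wwtr1 stretch lies at chr3:57576029-57576058, minus strand, with the motif at 136 bases. The Amotl2 stretch lies at chr9:102717727-102717756, plus strand, with the motif at 65 bases and on the opposite strand. Ankrd1 had 2 motifs, at chr19:36120037-36120066 and chr19:36119950-36119979 on the minus strand, 210 and 123 bases before the start. An annotated longer transcript of Ankrd1 covers the whole window, so these bases can also be transcribed. The Ccn1 stretch lies at chr3:145650071-145650100, minus strand, with the motif at 103 bases and on the opposite strand. The windows before the distal start of Wwtr1 and the start of Ccn1 hold no base of an annotated exon, and they are shown whole, at chr3:57575911-57576160 and chr3:145649986-145650235, both on the minus strand, because these genes led the coactivators and the targets in level.
Wwtr1: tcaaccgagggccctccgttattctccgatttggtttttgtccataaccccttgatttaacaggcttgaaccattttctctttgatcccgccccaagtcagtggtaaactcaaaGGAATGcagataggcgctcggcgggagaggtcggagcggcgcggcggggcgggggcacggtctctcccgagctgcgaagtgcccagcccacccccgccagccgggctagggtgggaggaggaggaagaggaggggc
Ccn1: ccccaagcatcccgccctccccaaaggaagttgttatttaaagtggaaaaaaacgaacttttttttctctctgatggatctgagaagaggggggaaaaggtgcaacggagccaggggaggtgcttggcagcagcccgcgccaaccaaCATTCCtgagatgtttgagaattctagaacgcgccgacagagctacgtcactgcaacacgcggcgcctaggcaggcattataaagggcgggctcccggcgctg

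The libraries held 12544138 to 13302916 reads, so 1 read was worth 0.0752 to 0.0797 CPM, the unit of reads of a gene relative to all reads counted in the library. Notch3, the gene of the overexpressed domain, had 168, 191, 162 and 153 CPM in replicates 1 to 4, and reads of the transgene and the endogenous gene cannot be told apart. All 8 satellite cell markers searched reached 1 CPM in every library (53.6% of all genes). They summed to 2492 to 3830 CPM, among them Pax7 at 118 to 142 CPM. Markers of other states and cells were also detected. The 6 genes of myogenic commitment summed to 97.1, 241, 437 and 209 CPM and the 10 sarcomere genes of adult fibres to 1348, 2664, 2545 and 1405 CPM in replicates 1 to 4. The 10 endothelial markers summed to 133 to 376 CPM with all 10 at 1 CPM or more throughout, and the 8 macrophage markers to 24.1 to 151 CPM with 5 of 8 so detected. The mural list summed to 559 to 1559 CPM (7 of 8 genes), the glial list to 363 to 555 CPM (5 of 6), and the tendon list to 10.2 to 248 CPM (4 of 5). The fibro-adipogenic list summed to 4276 to 7084 CPM, with 4 of 6 genes so detected. Col3a1 made up most of that sum, though 3 of the 6 genes had a mean of 10 CPM or more. Pdgfra, another marker of the list, had 0 to 2.30 CPM. In bulk libraries fewer cells of a type and less RNA per cell cannot be told apart. Libraries also differed in base composition. The Spearman correlation of transcript GC content with the deviation of each gene from its own mean, over genes of at least 10 CPM, was 0.435 in replicate 1, 0.219 in replicate 2, 0.0061 in replicate 3 and -0.555 in replicate 4. It is a description across genes, which are not independent.

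All 10 Hippo genes were expressed. Each had at least 1 CPM in all 4 libraries, as did 53.6% of all genes of the table, and 8 of 10 had a mean of 10 CPM or more (43.3% of all genes). The median of their means was 43.7 CPM, beside 4.83 CPM over all genes. Tead3 and Tead4 were the exceptions below 10 CPM.

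**Figure D1:**
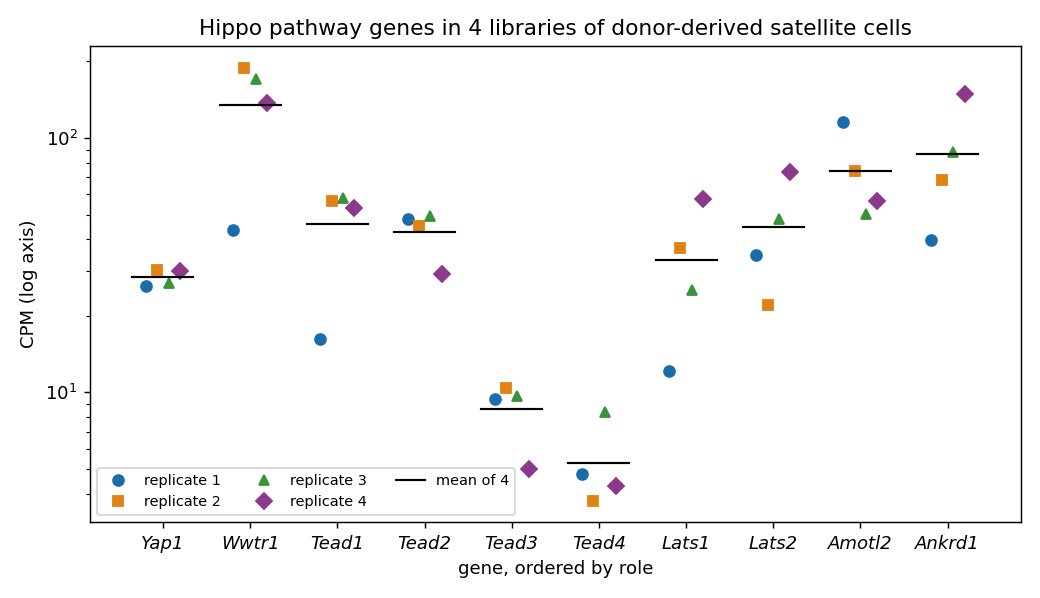
Level of the 10 Hippo genes in CPM on a log axis, with a marker for each of the 4 libraries and a line at their mean. Yap1 sits between 26.3 and 30.3 CPM, while Wwtr1, Tead1 and Lats1 are lowest in replicate 1.

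Of the coactivators, Wwtr1 was abundant and variable, and Yap1 lower and nearly constant. Yap1 (ENSMUSG00000053110, chromosome 9, 7931999 to 8004596, GENCODE M21, the assembly of mm10) had 26.3, 30.3, 26.9 and 30.1 CPM in replicates 1 to 4, a mean of 28.4 ± 2.10 CPM (SD, n = 4, as for all errors here). Its highest library was 1.15 times its lowest. The coefficient of variation was 7.39%, of which counting error alone gives 5.22%. The SD of log2(CPM + 1) was 0.10, and 41 of the 9202 genes with at least 10 CPM had a smaller one. The median SD of those genes was 0.62. After a linear correction of each library for transcript GC content and length, the SD of Yap1 was 0.19, at the 4.45th percentile. Yap1 thus lay among the least variable genes with and without that correction.

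Wwtr1 (ENSMUSG00000027803, chromosome 3, 57455649 to 57575910) had 43.3, 189, 169.9 and 137 CPM, a mean of 135 ± 64.7 CPM. Replicate 1 stood below the other 3 libraries by more than 3-fold. The SD of 0.97 on the log2 scale lay at the 97.0th percentile of genes of at least 10 CPM. After the GC and length correction replicate 1 was still lowest, with 52.4 CPM against 109 to 205 CPM. Of the 10 sarcomere genes, 7 were also lowest in replicate 1 (28.4% of all genes averaging at least 1 CPM). Their sum had the order of libraries of Wwtr1, with replicate 2 highest, through Ttn. Of the 10 genes, 7 were highest in replicate 3 (24.2% of all such genes). Their part in the level of Wwtr1 was not tested.

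Levels of different genes are compared per kb of summed exon length, since long genes gather more reads. On that scale Wwtr1 reached 28.2 ± 13.5 CPM per kb and Yap1 3.06 ± 0.227 CPM per kb, a ratio of means of 9.21. The difference of Yap1 minus Wwtr1 was -2.67 ± 0.88 on the scale of log2(CPM per kb + 1), with that sign in 4 of 4 libraries. The exact two-sided sign-flip permutation test gave p = 0.13, adjusted 0.25 over 14 gene pairs (n = 4). This p, 2 of the 16 sign assignments, is the smallest that 4 libraries allow, so none of the 14 differences can pass 0.05. The size of the Yap1 and Wwtr1 difference rests in part on length, with exons of 9257 bases for Yap1 and 4779 for Wwtr1. Without a length correction it was -2.02, and with the longest transcript of each gene it was -2.04. Yap1 made up 23.8% of the summed coactivator level per kb in replicate 1 and 7.64%, 7.55% and 10.1% in replicates 2 to 4. The higher share in replicate 1 goes with the low Wwtr1 level of that library, since Yap1 itself hardly moved.

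Tead2 led the TEAD family per kb of exon, Tead1 came next, and Tead3 and Tead4 were low. Tead1 (chromosome 7, 112679318 to 112906807), which binds M-CAT elements of muscle genes, had 16.3, 56.6, 58.3 and 52.9 CPM. Replicate 1 lay far below the others, which were close together. After the GC and length correction Tead1 had 19.8, 61.1, 55.7 and 42.4 CPM. Replicate 1 was still lowest, but replicates 2 to 4 lay further apart and in another order. The summed commitment genes had the order of libraries of the uncorrected Tead1 values only. Of these 6 genes, 5 were highest in replicate 3 (24.2% of all genes averaging at least 1 CPM) and 4 lowest in replicate 1 (28.4%). Their part in the level of Tead1 was not tested. Tead2 (chromosome 7, 45215753 to 45233644), a TEAD factor best known from the early mouse embryo, had 47.9, 44.9, 49.2 and 29.1 CPM, with replicate 4 lowest. After the GC and length correction its values were 39.1, 41.5, 47.1 and 40.3 CPM, and its SD of 0.12 (0.35 without the correction) was at the 1.11th percentile. Replicate 4 then no longer stood below the rest.

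Tead3 (chromosome 17, 28331671 to 28350817) had 9.46, 10.4, 9.64 and 5.02 CPM, with replicate 4 lowest. After the GC and length correction it had 7.55, 9.52, 9.20 and 7.31 CPM, and replicate 4 no longer stood apart. Tead4 (chromosome 6, 128224288 to 128300823), a target of Myod1 in differentiating mouse myoblasts, had 4.77, 3.76, 8.34 and 4.30 CPM. It was highest in replicate 3, where the 95% exact Poisson interval of its reads, 6.85 to 10.1 CPM, did not overlap that of replicate 2, 2.79 to 4.96 CPM. These intervals cover counting error only, since amplified reads are not independent molecules. After the GC and length correction Tead4 had 3.675, 3.39, 7.96 and 6.40 CPM. Replicate 3 was still highest, but replicate 4 then lay nearer to it than to replicates 1 and 2. The differentiation factor Myog was also highest in replicate 3, with 26.9, 93.8, 245 and 65.8 CPM, and its part in the level of Tead4 was not tested.

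Per kb of exon, Tead2 had 8.93 ± 1.94, Tead1 3.39 ± 1.47, Tead4 1.47 ± 0.577 and Tead3 1.28 ± 0.363 CPM per kb. Tead2 made up 71.8%, 58.1%, 56.1% and 51.0% of the summed TEAD level in replicates 1 to 4, and Tead1 8.61%, 25.9%, 23.4% and 32.7%. Tead2 was thus the largest share in each library. Tead2 exceeded Tead3 by 2.11 ± 0.10 and Tead4 by 2.01 ± 0.33 on the log2 scale, each time throughout (exact p = 0.13, adjusted 0.25, n = 4). Tead1 minus Tead2 was -1.24 ± 0.76, also in 4 of 4 libraries with the same p. Its size rests on the length of Tead1, whose exons sum to 13570 bases against 4788 for Tead2. Without a length correction the difference was -0.02, and with the longest transcript of each gene it was -1.35.

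Tead1 exceeded Tead3 by 0.87 ± 0.70 and Tead4 by 0.77 ± 0.63, in 3 of 4 libraries each (exact p = 0.25, adjusted 0.318, n = 4). Replicate 1 was the library in which it did not. Tead3 and Tead4 could not be ordered, with a difference of -0.10 ± 0.35 and 2 libraries on each side (exact p = 0.625, n = 4). The summed TEAD level was 13.9, 16.1, 18.3 and 11.9 CPM per kb, and the summed level of Yap1 and Wwtr1 11.9, 42.8, 38.4 and 32.0 CPM per kb. TEAD minus coactivators was -0.88 ± 0.74 on the log2 scale, below 0 in replicates 2 to 4 and at 0.21 in replicate 1 (exact p = 0.25, adjusted 0.318, n = 4). Without replicate 1 the mean was -1.25.

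**Figure D2:**
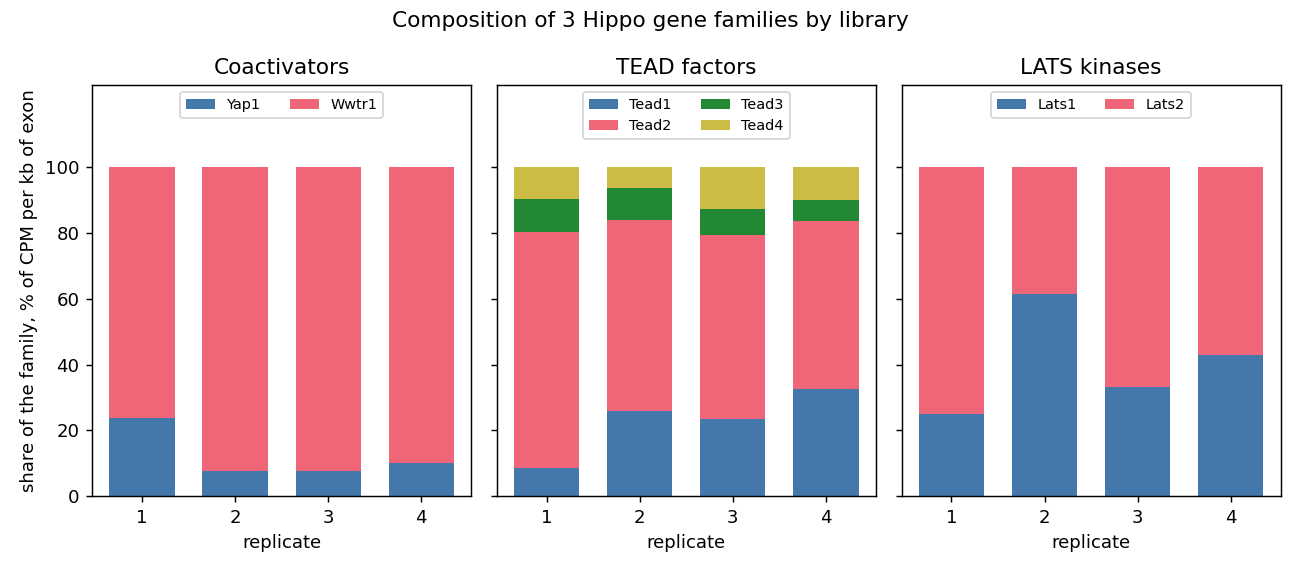
Share of each gene in the summed level per kb of its family, in percent, for replicates 1 to 4, with coactivators left, TEAD factors in the middle and LATS kinases right. Wwtr1 fills 76.2% to 92.5% of the coactivator bars and Tead2 51.0% to 71.8% of the TEAD bars, while the LATS bars, drawn with the full exon length of Lats2, change from library to library.

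Both LATS kinases were present, at levels that varied between libraries. Lats1 (chromosome 10, 7681214 to 7716460) had 12.1, 37.0, 25.2 and 57.8 CPM, and Lats2 (chromosome 14, 57689662 to 57758388) had 34.6, 22.1, 48.2 and 73.5 CPM. Both were highest in replicate 4, and the lowest library was replicate 1 for Lats1 and replicate 2 for Lats2. After the GC and length correction Lats1 had 15.8, 41.1, 24.1 and 42.3 CPM, so its replicate 4 then hardly exceeded replicate 2. Lats2 still stood highest in replicate 4 after that correction, with 78.4 CPM against 46.2 CPM in replicate 3, its next library. The lowest library of each kinase stayed the same. The share of mitochondrial reads, 0.533%, 0.981%, 0.822% and 1.82%, had the same order of libraries as Lats1, and its part was not tested. Per kb they had 4.53 ± 2.66 and 6.40 ± 3.16 CPM per kb, and Lats1 minus Lats2 was -0.46 ± 0.74 on the log2 scale, and negative in all but replicate 2 (exact p = 0.375, adjusted 0.438, n = 4). The difference ran from -0.79 to -0.22 when a replicate was left out, at -0.79 without replicate 2 and -0.22 without replicate 1. By full exon length Lats1 made up 61.5% of the pair in replicate 2 and 25.1% to 42.9% in the others, a share that turns in replicate 2 with another length of Lats2.

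The level of Lats2 is uncertain, since 2955 of its 6971 exonic bases are also annotated to Gm49361 on the same strand, and Gm49361 is listed with 0 reads in every library. How reads over shared exons were counted is not given in the sources used here. With the shared bases left out of its length, Lats2 stood at 11.1 ± 5.48 CPM per kb and Lats1 minus Lats2 at -1.15 ± 0.77. The difference was then negative in replicate 2 too (-0.10), and Lats1 made up 16.1%, 47.9%, 22.3% and 30.2% of the pair in replicates 1 to 4. The summed LATS level lay below the summed coactivator level throughout, with a log2 difference of -1.39 ± 0.75 (exact p = 0.13, adjusted 0.25, n = 4), or -0.91 with the shorter Lats2 length. Of the other genes, Tead2 shares 13 exonic bases with Cd37 (1.27 CPM) and Yap1 shares 116 with Gm20416 on the opposite strand.

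Amotl2, an angiomotin that binds YAP and is also a target gene, was highest in replicate 1, unlike the coactivators. It (chromosome 9, 102716672 to 102733418) had 115, 74.0, 50.4 and 56.6 CPM, a mean of 74.0 ± 29.1 CPM. Endothelial cells also express Amotl2. The 10 endothelial markers summed to 376, 282, 133 and 142 CPM in the same libraries, which is the same order. Of these 10 markers, 8 were highest in replicate 1 (26.0% of all genes averaging at least 1 CPM) and 6 lowest in replicate 3 (19.9%). Their part in the level of Amotl2 was not tested. After the GC and length correction Amotl2 had 99.4, 69.9, 48.2 and 72.6 CPM, with the same highest and lowest libraries.

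Its paralogs differed from it. Amotl1 had 95.2, 213, 208 and 119.5 CPM, highest in replicates 2 and 3, and Amot 2.03, 16.01, 10.6 and 14.4 CPM, lowest in replicate 1. Per kb Amotl2 stood at 11.8 ± 4.63, Amotl1 at 15.8 ± 5.996 and Amot at 1.28 ± 0.744 CPM per kb. In each library Amotl2 exceeded Amot, by 2.49 ± 0.98 on the log2 scale (exact p = 0.13, adjusted 0.25, n = 4), and this was 3.96 in replicate 1 and 1.88 to 2.14 in the others. Amotl2 minus Amotl1 was -0.38 ± 0.92, and negative in all but replicate 1 (exact p = 0.5, adjusted 0.538, n = 4). It was -0.81 without replicate 1 and -0.09 without replicate 3. No order of Amotl2 and Amotl1 was therefore resolved at this spread.

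Ankrd1 encodes a titin-binding ankyrin repeat protein that is induced in injured or stressed muscle and is a target of YAP and TAZ. It (chromosome 19, 36111961 to 36120099) had 39.6, 68.5, 88.0 and 149 CPM, a mean of 86.2 ± 46.3 CPM. Replicate 4 was highest and replicate 1 lowest, 3.77-fold apart, and the correction for GC content and length left the SD at 0.78. None of the 10 sarcomere genes of adult fibres was highest in replicate 4, beside 28.6% of all genes averaging at least 1 CPM. Lowest in replicate 1, like Ankrd1, were 7 of these 10 (28.4% of all such genes). The part of the sarcomere genes in the level of Ankrd1 was not tested. Ankrd2 had 4.93, 27.3, 16.1 and 7.49 CPM, highest in replicate 2. Per kb Ankrd1 had 29.9 ± 16.05 CPM per kb, against 12.3 ± 8.87 for Ankrd2 and 4.23 ± 0.973 for Ankrd23, the other members of the muscle ankyrin repeat family. Ankrd1 minus Ankrd23 was 2.43 ± 0.87 on the log2 scale and positive throughout (exact p = 0.13, adjusted 0.25, n = 4). Ankrd1 minus Ankrd2 was 1.33 ± 1.16 and positive in 3 of the 4 (exact p = 0.25, adjusted 0.318, n = 4), at -0.01 in replicate 2 and 2.79 in replicate 4. Without replicate 4 it was 0.84.

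Ordered by level per kb of exon, the 10 genes ran from Ankrd1 (29.9) and Wwtr1 (28.2) over Amotl2 (11.8), Tead2 (8.93), Lats2 (6.40), Lats1 (4.53), Tead1 (3.39) and Yap1 (3.06) to Tead4 (1.47) and Tead3 (1.28 CPM per kb). With the shared bases left out of its length, Lats2 (11.1) would stand above Tead2. Most neighbours in this order were not separated. The ranges over libraries overlapped for 8 of 9 neighbouring pairs, and the exception was Yap1 above Tead4, with 2.84 to 3.27 against 1.04 to 2.32 CPM per kb. Ankrd1 exceeded Wwtr1 in 2 of 4 libraries.

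Hippo genes did not vary as a block. Among the 8 genes of at least 10 CPM, the highest library was at least 2 times the lowest for 6 (77.6% of all such genes) and at least 3 times for 5 (36.6% of all such genes). None of the 8 had an SD of 1 or more on the log2 scale, which 2.08% of such genes had, but 2 of the 8 had one when replicate 2, 3 or 4 was left out. The lowest library was replicate 1 for 5 of the 8, Yap1, Wwtr1, Tead1, Lats1 and Ankrd1, beside 28.2% of all such genes. These 5 had the lowest transcript GC contents of the 8, 43.0% to 47.9% against 52.2% to 57.9%, and of all genes under 50% GC 40.1% were lowest in replicate 1. After the correction for GC content and length the lowest library was again replicate 1 for 5 of 8, now with Tead2 in place of Yap1, beside 25.9% of all genes. Wwtr1, Tead1, Lats1 and Ankrd1 were lowest in replicate 1 both ways. Of the other 3 genes, 1 each was lowest in replicate 2 (22.1% of all such genes), replicate 3 (18.4%) and replicate 4 (31.3%). The highest library was replicate 1 for 1 of the 8 (26.4%), replicate 2 for 2 (19.5%), replicate 3 for 2 (23.7%) and replicate 4 for 3 (30.4%). The correction made the SD smaller for 6 of the 8 genes, as it did for 66.2% of all genes.

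**Figure D3:**
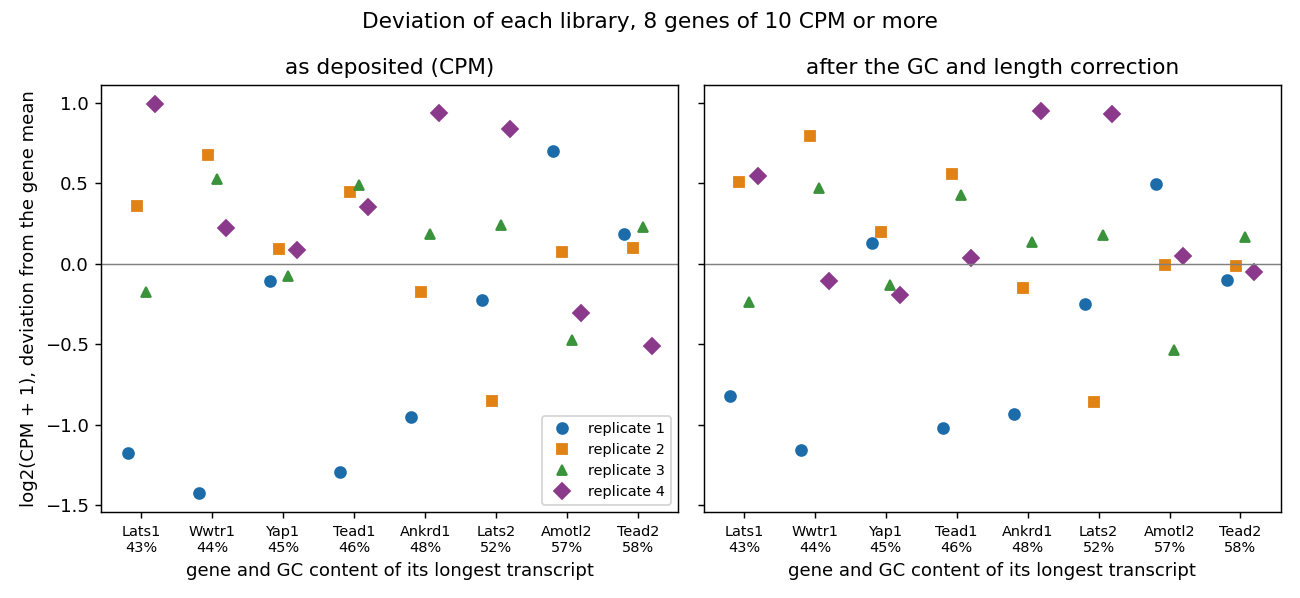
Deviation of each library from the gene mean, in log2(CPM + 1), for the 8 Hippo genes of at least 10 CPM, ordered by the GC content of the longest transcript, before (left) and after (right) the correction for GC content and length. In both panels replicate 1 is the lowest point of Lats1, Wwtr1, Tead1 and Ankrd1 and the highest of Amotl2, while the points of Tead2 draw together on the right.

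Genes with profiles most like those of Yap1, Wwtr1, Ankrd1 and Amotl2 were sought among 9201 others of at least 10 CPM, by the root mean square distance between centred log2(CPM + 1) values over the 4 libraries. For Yap1 these were Mtf2, Slc14a1 and Glrx3, at distances of 0.027, 0.037 and 0.038. For Wwtr1 they were Ube3c, Tmod2 and Rrn3, at 0.085, 0.10 and 0.12, and Ube3c had 9.46, 37.4, 37.4 and 30.8 CPM. For Ankrd1 they were Ube2d3, Aph1b and Ppp1r12a, at 0.033, 0.034 and 0.035, and for Amotl2 Gmeb1, Praf2 and Fxyd1, at 0.039, 0.042 and 0.048. Within a distance of 0.1 there were 53 genes for Yap1, 2 for Wwtr1, 55 for Ankrd1 and 30 for Amotl2. With 4 points such likeness describes these libraries only.

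The other genes of the pathway were mostly expressed too. Of 51 that are neither among the 10 nor among the targets, 45 had at least 1 CPM in all libraries (53.6% of all genes). A mean of at least 10 CPM was reached by 42 (43.3% of all genes), and the median mean was 50.1 CPM. In the core kinase cassette 4 of 5 reached 1 CPM throughout, beside the same 53.6%. Mob1a, an activating subunit of LATS, had 131 ± 69.2 CPM, and Stk3, the kinase upstream of LATS, 113 ± 38.2 CPM. Mob1b followed at 23.5 ± 10.4 CPM. Stk4, the paralog of Stk3, had 40.5, 17.0, 15.3 and 11.9 CPM, and the scaffold gene Sav1 0.704, 0.376, 0.536 and 0.478 CPM, both chosen here after their values were seen. Sav1 was thus near the floor of 3 reads, 0.226 to 0.239 CPM, while its kinase partner Stk3 was well detected.

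Of 16 upstream activators, 14 reached 1 CPM in every library (53.6% of all genes). Frmd6, a membrane-linked activator, led with 111, 271, 279 and 572 CPM, highest in replicate 4, followed by the kinases Map4k4 at 111 ± 64.8 CPM and Taok1 at 90.6 ± 51.7 CPM. Map4k4 had 206 CPM in replicate 1 and 66.3 to 95.2 CPM in the others, so the activators did not share a profile. Of 13 inhibitors of LATS and of its upstream kinases, 12 were so detected, led by Sike1 at 149 ± 71.0, Fgfr1op2 at 148 ± 60.8 and Mob4 at 139 ± 66.0 CPM. These are subunits of the STRIPAK phosphatase complex.

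Genes for cytoplasmic retention and degradation of YAP and TAZ were the most abundant pathway list, with a median mean of 152 CPM. Of these 14 genes, 13 reached 1 CPM in every library (53.6% of all genes). The phosphoserine-binding adaptors Ywhaz, Ywhae and Ywhab had 664 ± 248, 537 ± 230.0 and 522 ± 226 CPM, and these have many other partners. Per kb they stood at 161 ± 60.1, 209 ± 89.5 and 154 ± 66.7 CPM per kb. Of the vestigial-like cofactors, which bind TEAD factors at the surface used by YAP and TAZ, Vgll4 had 158, 136, 153 and 133 CPM, Vgll3 101, 46.6, 97.1 and 171 CPM and Vgll2, a skeletal muscle cofactor, 83.0, 59.9, 74.6 and 61.8 CPM. Vgll4 was nearly as constant as Yap1, with an SD of 0.12 on the log2 scale that 62 of 9202 genes undercut, though 0.22 after the GC and length correction. Vgll1 had 0 reads throughout, below the floor of 3 reads, and the upper bound of the 95% exact Poisson interval was 0.277 to 0.294 CPM. Measured per kb, Vgll2, Vgll4 and Vgll3 stood at 42.3 ± 6.62, 26.9 ± 2.28 and 14.6 ± 7.17 CPM per kb. The 4 TEAD genes summed to 15.1 ± 2.77 CPM per kb.

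**Figure D4:**
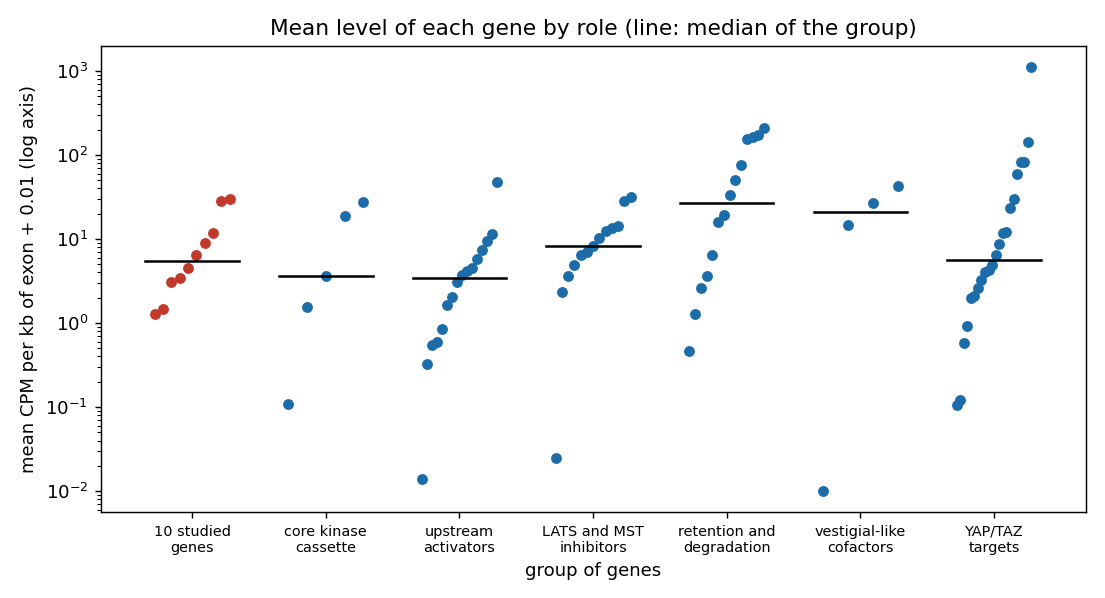
Mean level of each gene over 4 libraries in CPM per kb of exon on a log axis, with 0.01 added, by role in the pathway, and a line at the median of each group. The 10 studied genes span 1.28 to 29.9 CPM per kb, while the target genes run up to Ccn1 at 1108 CPM per kb.

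The target list holds 22 genes known to respond to YAP and TAZ, with Amotl2, Lats2 and Ankrd1 among them. Of these, 18 reached 1 CPM in all libraries (53.6% of all genes), and the median mean was 38.0 CPM. Ccn1, a matricellular protein gene and an immediate early gene, had 3157, 1461, 2084 and 2245 CPM and alone made up 59.8%, 44.0%, 53.3% and 52.0% of the summed list. Replicate 1 was highest and replicate 2 lowest. Genes induced by tissue dissociation include immediate early genes, and the 13 listed here summed to 38885, 25515, 42964 and 28086 CPM. That list was likewise lowest in replicate 2, but highest in replicate 3. The mural list summed to 1559, 559, 819 and 878 CPM in replicates 1 to 4, the same order of libraries as Ccn1. Of the 7 mural genes averaging at least 1 CPM, 2 were highest in replicate 1 (26.0% of all such genes) and 3 lowest in replicate 2 (22.1%). That order is thus one of the sum and not of most genes in it. The part of either list in the level of Ccn1 was not tested.

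The summed list ran from 3318 to 5279 CPM, a ratio of 1.59. Without Ccn1, left out here after its values were seen, the 21 other targets summed to 2122, 1857, 1828 and 2069 CPM, a ratio of 1.16. Axl, a receptor tyrosine kinase, followed with 453, 506, 302 and 407 CPM, and the matrix gene Ccdc80 with 534, 173, 493 and 234 CPM. Arhgef17 had the largest SD of the list among genes of at least 10 CPM (0.98), with 6.31 CPM in replicate 2 and 25.5 to 29.95 CPM in the others.

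Targets did not share a highest library, but most were lowest in replicate 2 or 3. Of the 21 with a mean of 1 CPM or more, 7 were highest in replicate 1, 4 in replicate 2, 3 in replicate 3 and 7 in replicate 4, beside 26.0%, 21.2%, 24.2% and 28.6% of all such genes. The lowest library was replicate 1 for 4 of them (28.4% of all such genes), replicate 2 for 9 (22.1%), replicate 3 for 7 (19.9%) and replicate 4 for 1 (29.6%). In replicate 1, where Wwtr1 was lowest, Ankrd1 was lowest among its own values and Amotl2 and Ccn1 were highest among theirs. Of the 18 targets with at least 10 CPM, 6 had libraries at least 3-fold apart (36.6% of all such genes) and none had an SD of 1 or more (2.08%), shares near those of all genes.

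**Figure D5:**
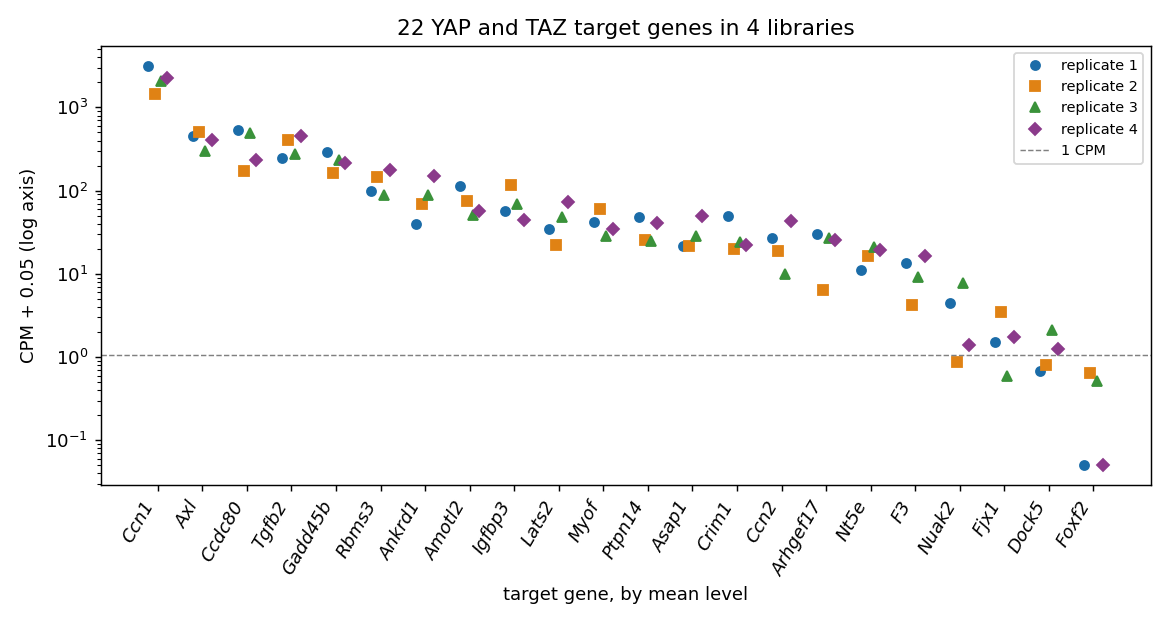
Level of the 22 YAP and TAZ target genes in CPM, with 0.05 added, on a log axis, ordered by mean level, with a marker per library and a dashed line at 1 CPM. Ccn1 lies between 1461 and 3157 CPM, and the order of the libraries changes from gene to gene.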

How the data were processed

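The authors deposited log2 CPM values to which, from the values, a fixed offset had been added. Tools listed in the submitters' notes are Trimmomatic 0.33, FastQC, featureCounts and edgeR, with mm10 as build. Aligner, annotation release and strand setting are not given in the sources used. Per the labels' protocols, cDNA from low input was amplified before Nextera XT library construction.

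The offset of 0.0548 CPM was removed, and 100% of values then were whole reads within 1e-06 reads. CPM, log2(CPM + 1) and CPM per kb of exon (GENCODE M21, 21224 identifiers matched) were computed with Python 3.11.15, NumPy 2.4.6, pandas 2.3.3 and SciPy 1.17.1, and read recovery was tested on simulated data. The plan named no unit, and no count model was fitted to the single group. Gene differences within libraries were tested by exact two-sided sign-flip permutation over 16 assignments, Benjamini-Hochberg adjusted over 14 pairs. The GC and length correction was a linear fit per library over genes of at least 10 CPM. The members and lists were chosen with earlier results of these data known.

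Named are the 10 genes, Notch3, paired genes, the 3 most abundant and the most variable gene of each list, 3 nearest profiles of 4 genes and some markers. Others were chosen after their values were seen. Alternatives were leaving out each replicate, median-of-ratios scaling, other pseudocounts, gene lengths, detection limits and minimum levels.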

Additional observations from a re-analysis of the deposited data

Results flagged for a closer look

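Of 53 gene levels, differences and shares searched, in 5 cases 1 library was far from the rest, its gap to the nearest value taking most of the range (Dixon's test). Chance alone flags about 1 in 20 groups. Tead1 stood at 16.3 CPM in replicate 1, against 52.9 to 58.3 CPM in the others. After the GC and length correction it stood at 19.8 against 42.4 to 61.1 CPM. Tead3 stood at 5.02 CPM in replicate 4, against 9.46 to 10.4 CPM, and at 7.31 against 7.55 to 9.52 CPM after the GC and length correction. Taok1 stood at 167 CPM in replicate 4, against 59.6 to 73.8 CPM, and at 106 against 58.7 to 85.4 CPM after that correction. The log2 difference of Amotl2 minus Amot was 3.96 in replicate 1, against 1.88 to 2.14. The share of Yap1 in the summed level of Yap1 and Wwtr1 per kb was 23.8% in replicate 1, against 7.55% to 10.1%.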

How the results depend on the processing

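The order of Tead3 and Tead4 was the only difference of 14 to turn. It was -0.10 as reported, 0.37 with the longest transcript and 0.62 without a length correction, and it ran from -0.24 to 0.012 when each replicate was left out, turning without replicate 3. The other 13 differences kept their sign under all alternatives run. Tead1 minus Tead2 did so narrowly, at -0.02 without a length correction, where it was negative in replicate 1 only. The difference of Yap1 minus Wwtr1 ran from -3.09 to -2.48 over the left-out replicates. It was smaller in size with the longest transcript (-2.04), without a length correction (-2.02) and with a pseudocount of 5 (-1.92). With a pseudocount of 0.1 it was -2.97. No member had an SD of 1 or more on the log2 scale with all libraries, and 0 to 2 had one when a replicate was left out, where the SD rests on 3 libraries. These runs, and the shorter Lats2 length, were chosen after seeing the data. The count of muscle ankyrin repeat genes detected in all libraries was 1 of 2 at 5 CPM. The other 55 detection counts and all 60 member levels stayed within 1.5 times or within 1 SD of the reported value. Median-of-ratios factors were 0.983 to 1.03. No paired analysis was possible because there is a single group. At this depth Tead3 and Tead4 have a counting error of 9.45% and 12.1% per library.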

Other observations

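Paralogs of the target list differed widely in level. Ccn1 and Ccn2, related matricellular genes that are both standard readouts of YAP and TAZ, stood at 1108 ± 347 and 8.62 ± 4.85 CPM per kb of exon. The ratio of Ccn1 to Ccn2 was 164, 110, 297 and 74.7 in replicates 1 to 4, so Ccn1 was higher in 4 of 4 libraries. Ccn2 itself had 27.2, 18.9, 9.95 and 42.6 CPM, with replicate 3 lowest and replicate 4 highest. The pair was chosen after its values were seen.

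Besides Yap1 and Vgll4, a few other genes of the lists varied little, chosen here after their values were seen. The kinase gene Taok2 had an SD of 0.14 on the log2 scale, with 83 of 9202 genes below it. Pax7, the satellite cell marker, had the same SD, with 85 genes below it. After the GC and length correction these SDs lay at the 4.45th (Yap1), 6.64th (Vgll4), 17.3th (Taok2) and 1.92th (Pax7) percentile.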
